A study of Mus musculus with 4 samples.

Results

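Genes of amino acid synthesis, amino acid transport, the ATF4 stress response and tRNA charging were examined. The samples were described by the study as lung tumor-infiltrating CD4+ T cells. The 40 genes were taken by name for these roles, by a rule that uses no measured value, although earlier results of these data were known when it was set, and all 40 were among the 25239 gene symbols counted in each library. They comprised 12 ATF4 pathway factors, 11 enzymes of amino acid and one-carbon synthesis, 5 amino acid transporters and 12 cytosolic aminoacyl-tRNA synthetases, and all 40 passed the filter on low counts together with the other genes of the 13919 tested.

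RNA-Seq had been performed on 4 libraries, 2 from WT mice and 2 from CD4/ALK4-KO mice (called WT-labelled and KO-labelled here), on the C57BL/6 background, with male mice of 8 to 10 weeks used throughout the study. CD4/ALK4-KO mice have the genotype CD4CreERT2+/-/Acvr1bfl/fl, in which tamoxifen switches on a Cre recombinase under the mouse *Cd4* promoter to delete *Acvr1b*, the gene of the activin receptor ALK4. All mice had been inoculated intravenously with LLC-OVA cells, Lewis lung carcinoma cells carrying ovalbumin. The labels place the removal of lung tumors between days 18 and 22, and the study's methods between days 16 and 20 for this experiment. Whether WT mice carried Cre or received tamoxifen and the number of animals per library are not given in the sources used here, so p-values measure the spread between these libraries, which may be technical. The study's methods describe enrichment of CD4+ T cells with isolation kits after a density gradient for cultured cells. Their RNA-Seq section names no isolation step. Such enrichment can leave other cells in the sample. Markers of other cell types had counts in every library, as given below.

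When amino acids run short or proteins misfold, protein kinases phosphorylate the translation factor eIF2, which slows most protein synthesis but favours translation of the *Atf4* mRNA. The ATF4 protein then switches on genes for making and importing amino acids and for charging tRNAs, together with feedback factors that end or sharpen the response. Activated T cells and growing tumor cells both use this supply line for protein and nucleotide synthesis. ATF4 and its C/EBP partners bind a composite element in many of these promoters, and the level of the *Atf4* mRNA alone does not measure the amount of ATF4 protein.

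The promoter sequences were searched for the core letters of this element, TGATGNAA, on both strands, in windows running from 250 bases before to 50 bases after the RefSeq gene start (build GRCm38.p6). A window was at hand for 32 of the 40 genes, and 11 of these 32 (34.4%) held the letters, against 4.51% of the 27025 genes with a window and 2.89% of the genes tested that had one. By role, 5 of 8 synthetases, 4 of 11 ATF4 pathway factors, 2 of 10 synthesis enzymes and none of 3 transporters held them. The 4 sites below belong to genes whose mRNA was lower in the KO-labelled libraries, and the 3 after them to synthetases that were not called, to show that the letters were present in both. Each site is printed along the strand of the gene with the element in capitals, and a site on the other strand appears as the reverse complement. The positions are chr6:7693214-7693243 for *Asns* (minus strand), chr2:152344028-152344057 for *Trib3* (minus strand), chr7:126625562-126625591 for *Nupr1* (minus strand) and chr19:27216809-27216838 for *Vldlr* (plus strand). Those of the synthetases are chr13:49682126-49682155 for *Iars* (plus strand), chr15:11399655-11399684 for *Tars* (minus strand) and chr4:129189895-129189924 for *Yars* (plus strand).
Asns: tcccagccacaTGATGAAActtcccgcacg
Trib3: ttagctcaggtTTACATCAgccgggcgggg
Nupr1: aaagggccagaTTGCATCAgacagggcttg
Vldlr: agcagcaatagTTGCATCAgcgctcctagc
Iars: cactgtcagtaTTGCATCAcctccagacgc
Tars: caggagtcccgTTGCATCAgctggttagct
Yars: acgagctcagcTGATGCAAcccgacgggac
Other genes that held the letters included *Chac1*, *Gars* and *Pycr1*. Among the 11 genes with the letters 4 were called lower, and among the 21 without them 4 were called lower and 1 higher, with median log2 fold changes of -0.51 and -0.091. Of all genes tested 15.4% were called lower and 17.4% higher. The split rests on few calls, was not tested, and leaves out the genes without a window. Of those, *Eif4ebp1*, *Cth*, *Slc7a5*, *Lars* and *Nars* were called lower, and *Slc1a5*, *Cars* and *Wars* were not called. The E-box letters CACGTG, which read the same on both strands, stood in 5 of the 32 windows (15.6%), against 8.09% of all genes with a window and 11.5% of the genes tested that had one, and did not overlap a printed element. A match of letters is a description of the sequence and does not show that a factor was bound in these cells.

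Across the 40 genes, 13 were lower and 1 was higher in the KO-labelled libraries, taking an adjusted p below 0.05 as the threshold (edgeR's quasi-likelihood test, Benjamini-Hochberg adjustment over all genes tested). This was 32.5% lower and 2.5% higher, against 15.4% lower and 17.4% higher among all genes tested. The median log2 fold change (KO-labelled over WT-labelled, with SE its standard error) of the 40 genes was -0.34, with 31 genes below 0, while that of all genes tested was -0.0082. The medians by role describe the groups and were not tested against each other. The synthesis enzymes had a median of -1.01 with 6 of 11 lower, the ATF4 pathway factors -0.50 with 4 of 12 lower and 1 higher, the synthetases -0.23 with 2 of 12 lower, and the transporters 0.22 with 1 of 5 lower. The plot of fold changes shows this order, in which only the transporters had a median above 0, on the TMM scale used throughout.

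**Figure D1:**
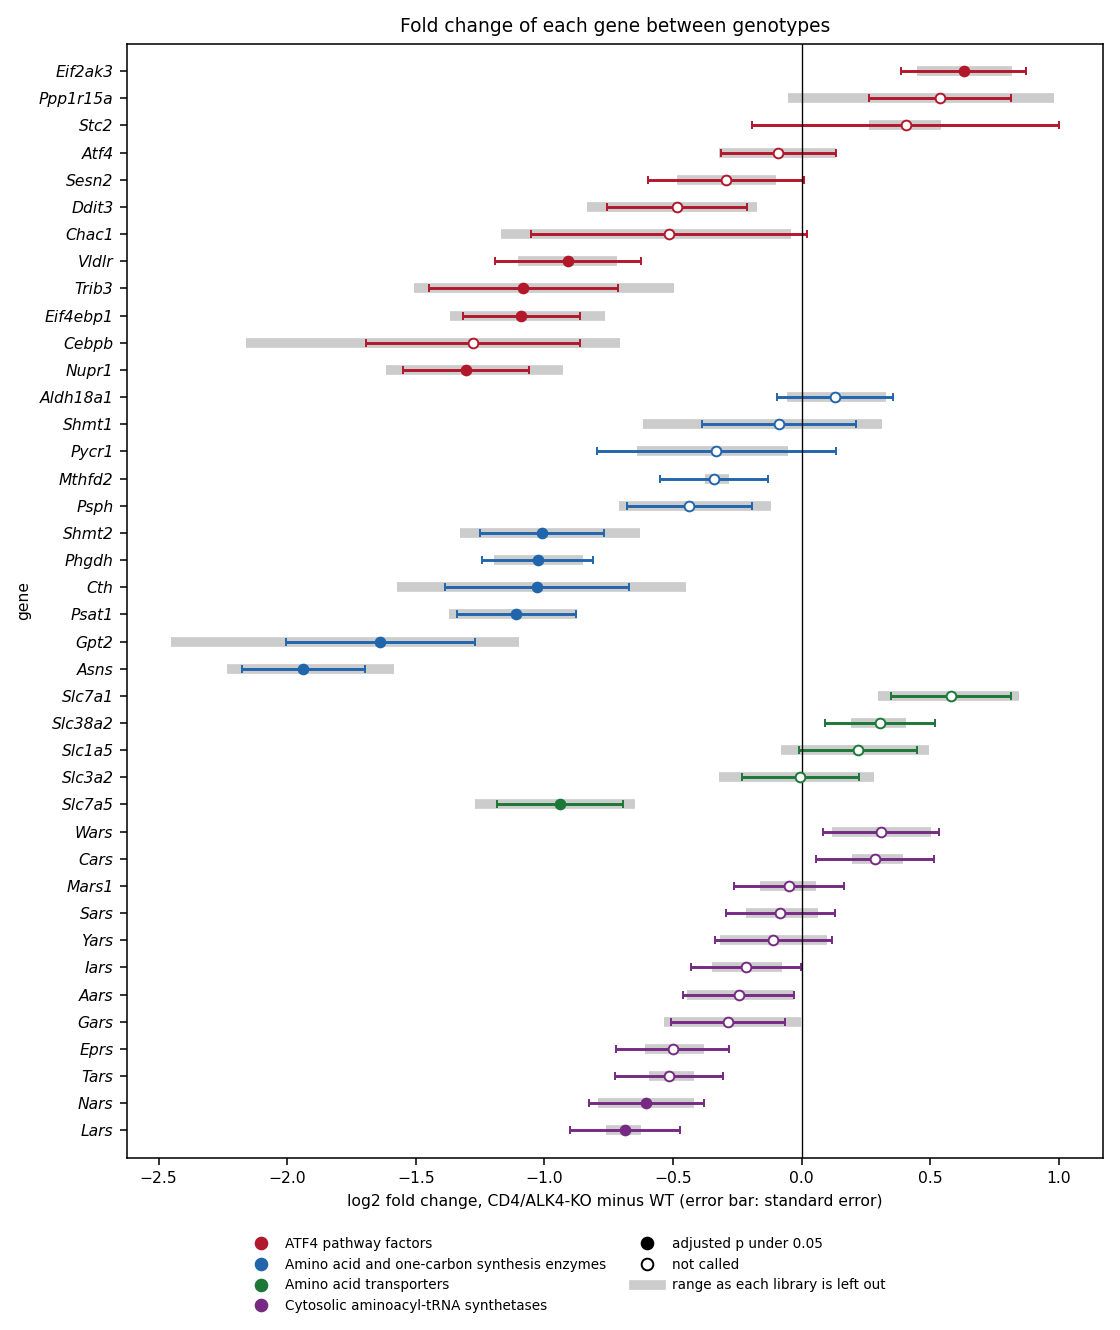
Log2 fold change of each of the 40 genes between CD4/ALK4-KO and WT libraries (horizontal axis), grouped by role, with standard errors as bars, filled points for genes at an adjusted p under 0.05 and grey bands for the range as each library was left out. *Asns* lies lowest at -1.94 and *Eif2ak3* highest at 0.63. On the scale set by T cell receptor genes all 40 genes were called lower, as were 92% of all genes tested.

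Libraries were scaled by the TMM method, and CPM are counts scaled to a TMM-adjusted library size of 1000000. Total counts were 11823908 to 13943237 per library. Counts of the targeted gene did not separate the genotypes: *Acvr1b* had 426 and 342 counts in the WT-labelled libraries and 322 and 445 in the KO-labelled ones (log2 fold change 0.16, SE 0.24, adjusted p = 0.66). A count over the whole gene cannot show the loss of some of its exons, nor a deletion confined to CD4+ T cells among other cells. These counts therefore do not test the deletion. The libraries are named by their labels, and every direction is one between labels. Marker lists of cell types also moved with the labels. All 14 T cell markers measured were higher, with a summed level of 522 to 575 CPM in the WT-labelled libraries and 2897 to 2932 CPM in the KO-labelled ones, and *Cd4* itself rose from 51.7 ± 5.24 to 317 ± 13.9 CPM (SD, n = 2 libraries each). The tumour tracer genes *Rhox5* and *Plac1* were both lower, with a summed level of 318 and 362 CPM against 42.1 and 50.3 CPM. Of 10 cycling cell genes 8 were lower (1533 and 1643 against 1037 and 811 CPM), of 7 fibroblast markers 4 were lower (6712 and 7307 against 4773 and 3965 CPM), and of 8 lung epithelial markers 5 were lower and 2 higher (889 to 899 against 436 to 583 CPM). All 8 B cell and all 8 CD8 and NK cell markers were higher, at 60.1 to 71.4 against 232 to 437 CPM and at 137 to 190 against 582 to 669 CPM. Macrophage markers had 2 of 10 higher and overlapped in sum (1456 to 1994 against 1321 to 1570 CPM), as did neutrophil markers, with 2 of 7 higher (926 to 1451 against 938 to 1503 CPM). Of the 10 macrophage markers 7 had a log2 fold change below 0, though none was called lower, and the list's median was -0.39. Of 7 dendritic cell markers 4 were higher and 1 lower (105 to 112 against 232 to 267 CPM), and of 6 endothelial markers 1 was higher and 1 lower (54.6 to 71.2 against 124 to 140 CPM). The endothelial sum followed *Pecam1*, which had 22.5 and 42.7 against 106 and 108 CPM, while the list's median log2 fold change was -0.33. No marker of these lists was at 0 in all libraries. In every library the 7 fibroblast markers summed to more CPM than the 14 T cell markers. The part of these cell populations in the results below was not tested, and in such bulk samples fewer cells of a type and less RNA per cell cannot be told apart. With scaling instead to the genes of the T cell receptor complex *Cd3d*, *Cd3e*, *Cd3g* and *Cd247*, the log2 fold changes of all genes shifted by a median of -2.18, and all 40 genes were lower, as were 92.0% of the genes tested.

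**Figure D2:**
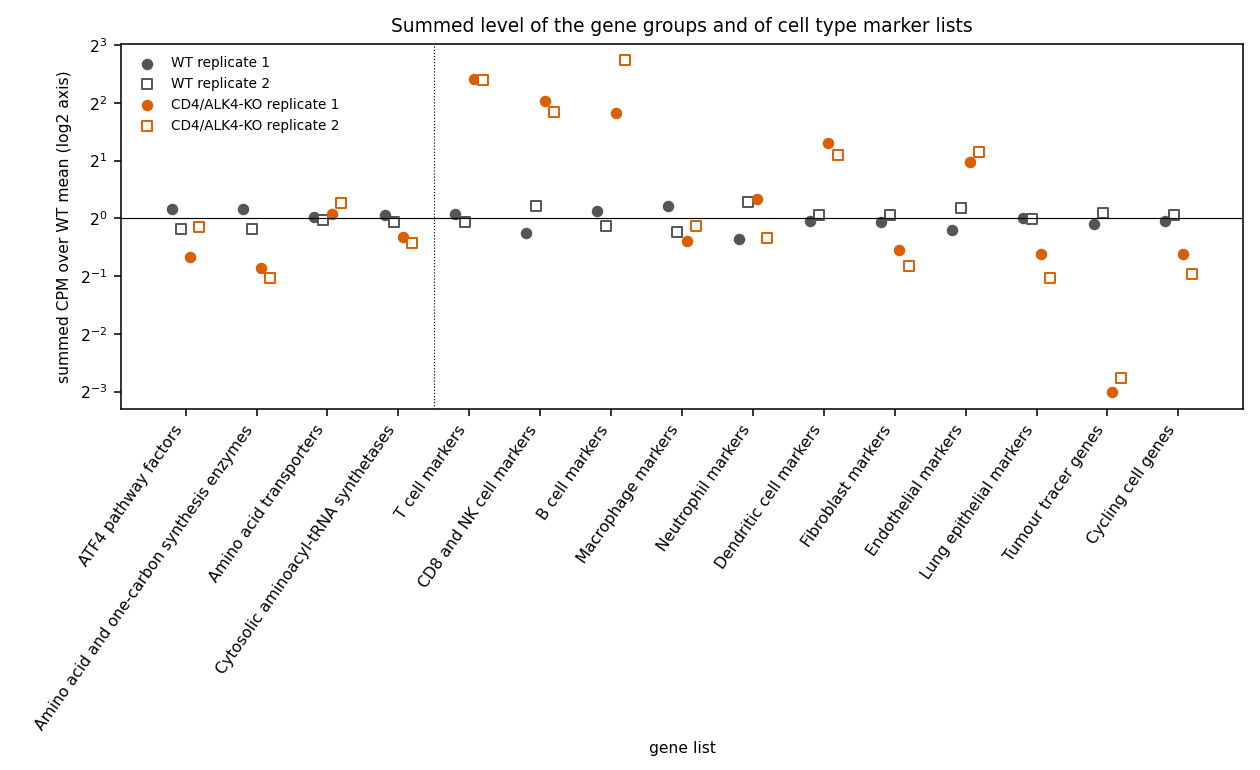
Summed CPM of the 4 gene groups (left of the dotted line) and of cell type marker lists (right), each divided by the mean of the WT libraries, on a log2 axis with 1 point per library. The synthesis enzymes stood at 0.521 of the WT level and the tumour tracer genes at 0.136, while the T cell markers stood at 5.31 times the WT level. On the scale set by T cell receptor genes all 40 genes of the 4 groups were lower, as were 92% of all genes tested.

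Asparagine synthetase showed the largest difference among the 40 genes. *Asns* (chromosome 6, 7675169 to 7693254), which makes asparagine from aspartate and glutamine and carries the promoter site printed above, had 221 and 141 CPM in the WT-labelled libraries and 50.4 and 44.1 CPM in the KO-labelled ones. Both WT-labelled libraries were above both KO-labelled ones by a wide gap, although the WT libraries also differed from each other. The log2 fold change was -1.94 (SE 0.24, adjusted p = 2.1e-06), or 0.26 of the WT level, and lay between -2.23 and -1.58 over the fits that each omitted a library. *Gpt2*, the mitochondrial alanine aminotransferase, had 18.2 and 12.9 CPM against 2.86 and 7.13 CPM. Its log2 fold change of -1.64 (SE 0.37, adjusted p = 0.0017) was -1.10 when CD4/ALK4-KO replicate 1 was omitted and -2.45 when replicate 2 was. These libraries held few and unequal counts of *Gpt2*, 34 and 88. *Cth*, which makes cysteine from cystathionine, had 26.6 and 13.3 CPM against 13.02 and 6.56 CPM, so that the lower WT library barely exceeded the higher CD4/ALK4-KO library. The log2 fold change of *Cth* was -1.03 (SE 0.36, adjusted p = 0.033), but the call was lost without WT replicate 1 (-0.45) or CD4/ALK4-KO replicate 2 (-0.62), and the value was -1.57 without CD4/ALK4-KO replicate 1.

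The serine pathway was lower at its entry. *Phgdh* (chromosome 3, 98313170 to 98339990), whose enzyme takes the first step from glycolysis towards serine, had 128 and 101 CPM in the WT-labelled libraries and 54.9 and 57.3 CPM in the KO-labelled ones. Its log2 fold change was -1.03 (SE 0.22, adjusted p = 0.00094). *Psat1* (chromosome 19, 15904678 to 15947337), the aminotransferase of the next step, had 348 and 313 CPM against 181 and 125 CPM, a log2 fold change of -1.11 (SE 0.23, adjusted p = 0.00084). *Psph*, the phosphatase that releases serine, had 50.3 and 33.3 CPM against 33.4 and 28.4 CPM. Here the genotypes overlapped, and the log2 fold change of -0.44 did not pass the test (adjusted p = 0.18). Downstream, *Shmt2*, which turns serine into glycine in mitochondria and passes its carbon to folate, had 126 and 77.9 CPM against 45.2 and 56.1 CPM. It was lower, by a log2 fold change of -1.01 (SE 0.24, adjusted p = 0.0026). The cytosolic form *Shmt1* had 17.3 and 17.5 CPM against 21.7 and 11.1 CPM, a log2 fold change of -0.088 (adjusted p = 0.85). *Mthfd2*, the mitochondrial folate enzyme after *Shmt2*, had 102 and 101 CPM against 83.7 and 76.4 CPM. Both KO-labelled libraries were below both WT-labelled ones, but the log2 fold change of -0.34 (adjusted p = 0.22) was not past the threshold. Without WT replicate 1 the calls of *Phgdh* (-0.85) and *Shmt2* (-0.63) were lost, whereas *Psat1* remained called, at -1.04. The exons of *Psph* (452 bp), *Shmt1* (184 bp) and *Shmt2* (32 bp) overlap those of a neighbouring gene, and reads within these stretches cannot be assigned to 1 gene with certainty.

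The proline enzymes did not pass the test. *Aldh18a1*, which starts proline synthesis from glutamate, had 46.9 to 61.2 CPM in the WT-labelled libraries and 53.9 to 64.3 CPM in the KO-labelled ones (log2 fold change 0.13, adjusted p = 0.70). *Pycr1*, which completes it in mitochondria, had only 27 to 55 counts per library and a log2 fold change of -0.33 (adjusted p = 0.63), with a standard error of 0.47 that leaves a change of such size undetectable at this depth. Both overlapped between the genotypes.

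**Figure D3:**
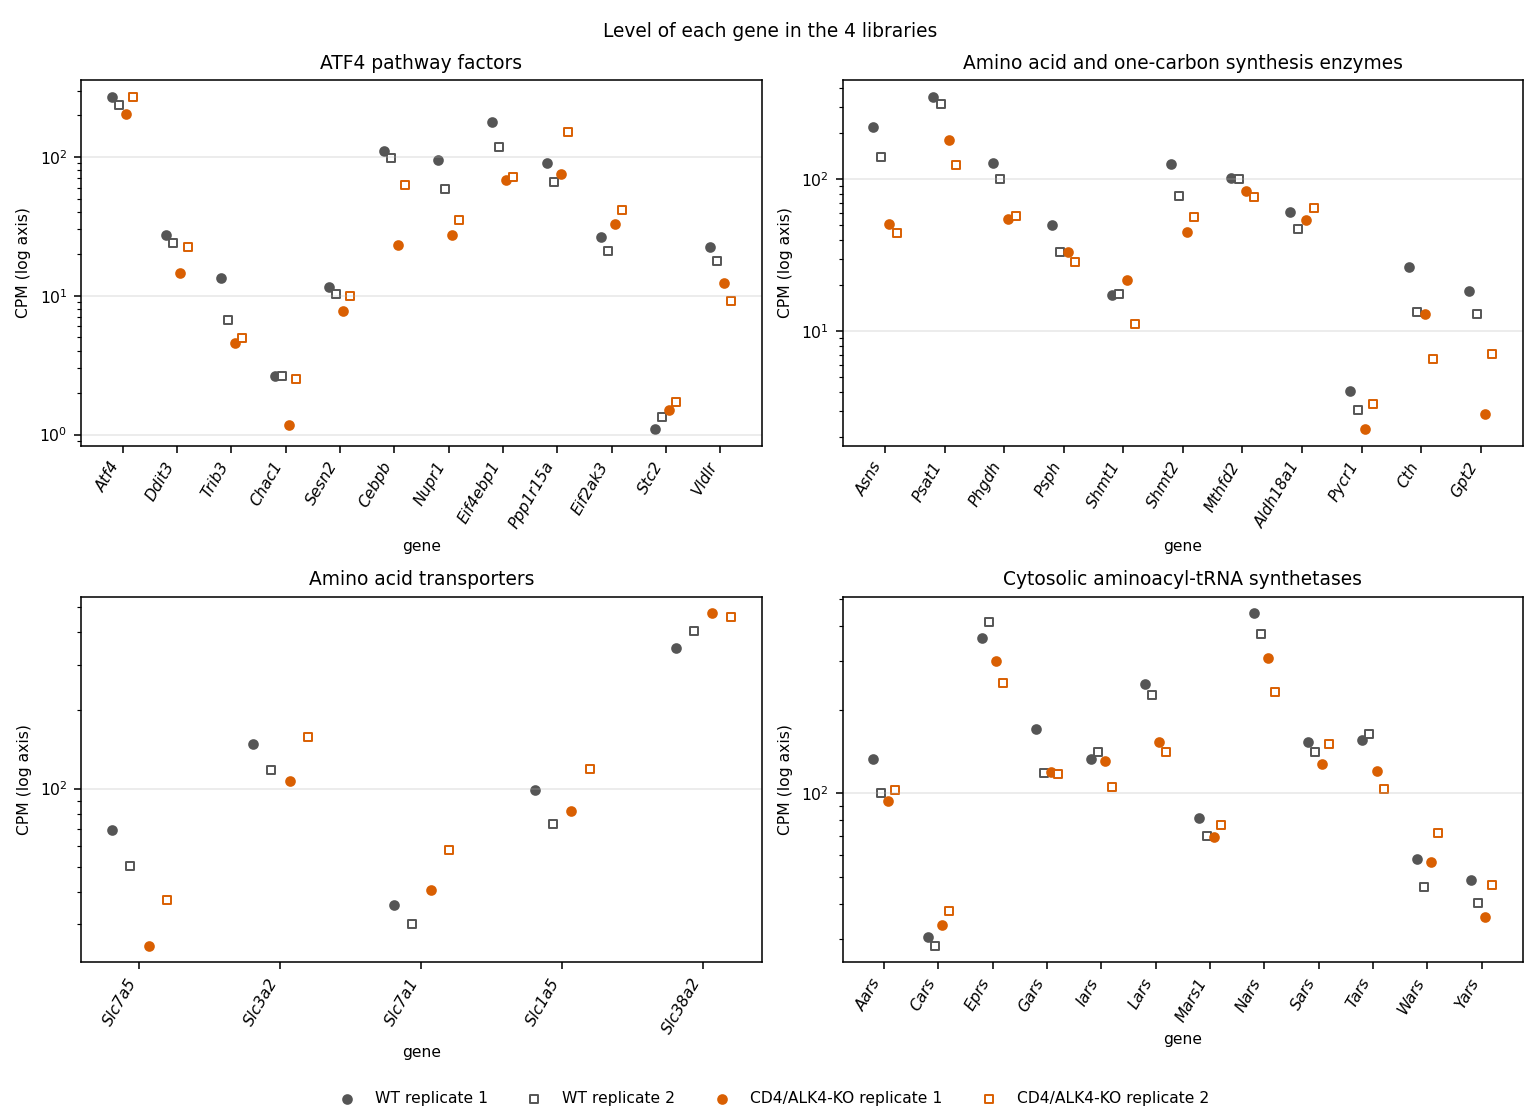
CPM of each gene in the 4 libraries on a log axis, in 1 panel per role, with grey symbols for WT and orange for CD4/ALK4-KO, circles for replicate 1 and squares for replicate 2. *Asns*, *Psat1* and *Phgdh* separate by genotype, while for *Atf4*, *Ppp1r15a* and *Slc3a2* CD4/ALK4-KO replicate 2 lies above both WT libraries. These are TMM-scaled levels. On the scale set by T cell receptor genes all 40 genes were called lower in CD4/ALK4-KO, as were 92% of all genes tested.

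The mRNA of *Atf4* itself differed by less than the spread between replicates. *Atf4* (chromosome 15, 80255184 to 80257541), the transcription factor of the pathway, had 269 and 235 CPM in the WT-labelled libraries and 203 and 270 CPM in the KO-labelled ones. The log2 fold change was -0.091 (SE 0.22, adjusted p = 0.79), and omitting single libraries moved it between -0.32 and 0.13. *Eif2ak3*, which encodes PERK, the eIF2 kinase of the endoplasmic reticulum, was the only one of the 40 genes called higher. It had 26.6 and 21.1 CPM against 32.7 and 41.1 CPM, and its log2 fold change of 0.63 (SE 0.24, adjusted p = 0.0496) lay at the threshold. The call was lost with DESeq2 (0.64), with upper quartile scaling (0.56), and without WT replicate 1 (0.80), WT replicate 2 (0.46) or CD4/ALK4-KO replicate 2 (0.45), and on the scale set by T cell receptor genes it was at -1.54. *Ppp1r15a*, which encodes GADD34, the phosphatase subunit that reverses eIF2 phosphorylation, had 89.6 and 65.6 CPM against 75.0 and 150 CPM. CD4/ALK4-KO replicate 2 stood alone, and the log2 fold change of 0.54 (adjusted p = 0.15) was -0.055 without it and 0.98 without CD4/ALK4-KO replicate 1.

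Several targets and feedback factors of ATF4 were lower. *Nupr1*, a small stress-induced chromatin protein, had 95.1 and 59.1 CPM in the WT-labelled libraries and 27.5 and 34.9 CPM in the KO-labelled ones, a log2 fold change of -1.30 (SE 0.25, adjusted p = 0.00031). *Eif4ebp1*, which encodes the translation repressor 4E-BP1, had 179 and 118 CPM against 68.3 and 71.2 CPM, a log2 fold change of -1.09 (SE 0.23, adjusted p = 0.00084). *Trib3*, a pseudokinase that feeds back on ATF4, had 13.4 and 6.65 CPM against 4.54 and 4.94 CPM. Its log2 fold change of -1.08 (SE 0.37, adjusted p = 0.026) was -0.50 without WT replicate 1, which held 184 of its counts. *Vldlr*, a lipoprotein receptor induced in stress, had 22.4 and 17.8 CPM against 12.3 and 9.15 CPM, a log2 fold change of -0.91 (SE 0.28, adjusted p = 0.017). Of these 4 genes, *Nupr1*, *Trib3* and *Vldlr* carry a promoter site printed above, and *Eif4ebp1* had no window to search. *Chac1*, described below, held the letters too but was not called. The 4 lower genes did not overlap between the genotypes, which was also so for 66.7% of all genes tested. Without WT replicate 1 the calls of all 4 were lost, with *Nupr1* at -0.93, *Eif4ebp1* at -0.76 and *Vldlr* at -0.74, and the Wald test of DESeq2 did not call *Trib3* at nearly the same value, -1.07.

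The remaining factors of this group were not called. The exons of *Cebpb* (312 bp), *Ddit3* (68 bp) and *Ppp1r15a* (12 bp) overlap those of a neighbouring gene, which makes their counts less certain. *Cebpb*, a C/EBP partner of ATF4 that is also abundant in myeloid cells, had 109 and 98.6 CPM in the WT-labelled libraries and 23.4 and 62.4 CPM in the KO-labelled ones. Both WT libraries were higher, but the CD4/ALK4-KO libraries lay far apart, and the log2 fold change of -1.28 (SE 0.41, adjusted p = 0.052) missed the threshold. Without CD4/ALK4-KO replicate 2 it was -2.16, without replicate 1 it was -0.71, and the gene was called lower in each fit with a library left out. *Ddit3*, which encodes the stress factor CHOP, had 27.6 and 23.8 CPM against 14.4 and 22.3 CPM (log2 fold change -0.48, adjusted p = 0.18). *Sesn2*, a leucine sensor that restrains mTORC1, was at -0.29 and *Chac1*, which degrades glutathione, at -0.52. *Chac1* and the secreted glycoprotein gene *Stc2* (0.40) had under 50 counts in every library, 14 to 36 and 15 to 21, too few to resolve changes of this size.

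Of the 5 amino acid transporters 1 was lower and none was called higher. *Slc7a5* (chromosome 8, 121881150 to 121907694), which encodes LAT1, the carrier of leucine and other large neutral amino acids, had 69.2 and 50.2 CPM in the WT-labelled libraries and 24.9 and 37.3 CPM in the KO-labelled ones. Its level was lower (log2 fold change -0.94, SE 0.24, adjusted p = 0.0050), and without WT replicate 1 it was at -0.70 and no longer called. *Slc3a2*, which encodes CD98, the heavy chain that carries LAT1 to the membrane, had 148 and 117 CPM against 107 and 158 CPM. Its log2 fold change was -0.0057 (SE 0.23, adjusted p = 0.99). *Slc7a1*, an importer of arginine and lysine, had 35.5 and 30.2 CPM against 40.6 and 57.8 CPM (log2 fold change 0.58, adjusted p = 0.059), without overlap. *Slc38a2*, an importer of small neutral amino acids, had 349 and 405 CPM against 473 and 458 CPM (0.30, adjusted p = 0.29), also without overlap. Of all genes tested 66.7% had no overlap. *Slc1a5*, the glutamine carrier ASCT2, had 98.9 and 73.3 CPM against 81.7 and 119 CPM (0.22, adjusted p = 0.51). For these last 3 transporters the direction depended on the scale, since all were below 0 on that set by T cell receptor genes. Without CD4/ALK4-KO replicate 1, *Slc7a1* (0.84) and *Slc1a5* (0.49) were called higher.

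Aminoacyl-tRNA synthetases, which load each amino acid onto its tRNA, had a smaller median change than the synthesis enzymes, a difference given as a description. *Lars*, for leucine, had 248 and 226 CPM in the WT-labelled libraries and 153 and 141 CPM in the KO-labelled ones, a log2 fold change of -0.69 (SE 0.21, adjusted p = 0.017). *Nars*, for asparagine, had 445 and 375 CPM against 307 and 232 CPM, a log2 fold change of -0.60 (SE 0.22, adjusted p = 0.042). The 2 genes did not overlap between the genotypes, which was also so for 66.7% of all genes tested. Neither call held without WT replicate 1 (*Lars* -0.63, *Nars* -0.48) or WT replicate 2 (-0.76 and -0.73), and that of *Nars* was also lost without CD4/ALK4-KO replicate 2 (-0.42). *Tars*, for threonine, with 156 and 164 CPM against 120 and 104 CPM, stood at -0.51 on the log2 scale (adjusted p = 0.063). *Eprs*, which charges both glutamate and proline, had 362 and 414 CPM against 299 and 249 CPM and a log2 fold change of -0.50 (adjusted p = 0.082). These 2 genes separated the genotypes without passing the threshold, and were called lower with upper quartile scaling (*Tars* -0.58, *Eprs* -0.57).

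The other 8 synthetases had log2 fold changes between -0.29 and 0.31, none past the threshold. *Gars* (glycine) was at -0.29, *Aars* (alanine) at -0.24, *Iars* (isoleucine) at -0.22, *Yars* (tyrosine) at -0.11, *Sars* (serine) at -0.083, *Mars1* (methionine) at -0.050, *Cars* (cysteine) at 0.28 and *Wars* (tryptophan) at 0.31. *Wars*, which interferon also induces, had 58.1 and 46.1 CPM against 56.7 and 72.2 CPM, and *Cars* 30.3 and 28.3 CPM against 33.7 and 37.7 CPM. Both were below 0 on the scale set by T cell receptor genes. *Iars*, *Tars*, *Yars* and *Gars* all held the element of the printed sites, and none of these 4 was called. The exons of *Mars1* overlap 68 bp of *Ddit3*, and those of *Aars* overlap *Exosc6* and those of *Yars* another gene, so that their counts are less certain.

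Compared per length of the principal transcript, the 40 genes covered a wide range of levels, which the plot of level per transcript length shows. In the WT-labelled libraries the highest were *Nars* with 149 CPM per kb, *Atf4* with 146, *Psat1* with 126, *Nupr1* with 93.0 and *Asns* with 89.7 CPM per kb. *Nars* exceeded *Atf4* in both WT libraries (161.9 and 136.6 against 155.8 and 136.3 CPM per kb). The same held for *Nupr1* over *Asns* (114.7 and 71.25 against 109.5 and 69.89 CPM per kb). These margins were smaller than the spread between the WT libraries. In the KO-labelled libraries, *Atf4* led with 137 CPM per kb, ahead of *Slc38a2* with 99.9 and *Nars* with 98.2, which overlapped each other, while *Asns* stood at 23.4 CPM per kb. At the lower end, *Stc2* had 0.308 and *Pycr1* 1.21 CPM per kb in the WT-labelled libraries.

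**Figure D4:**
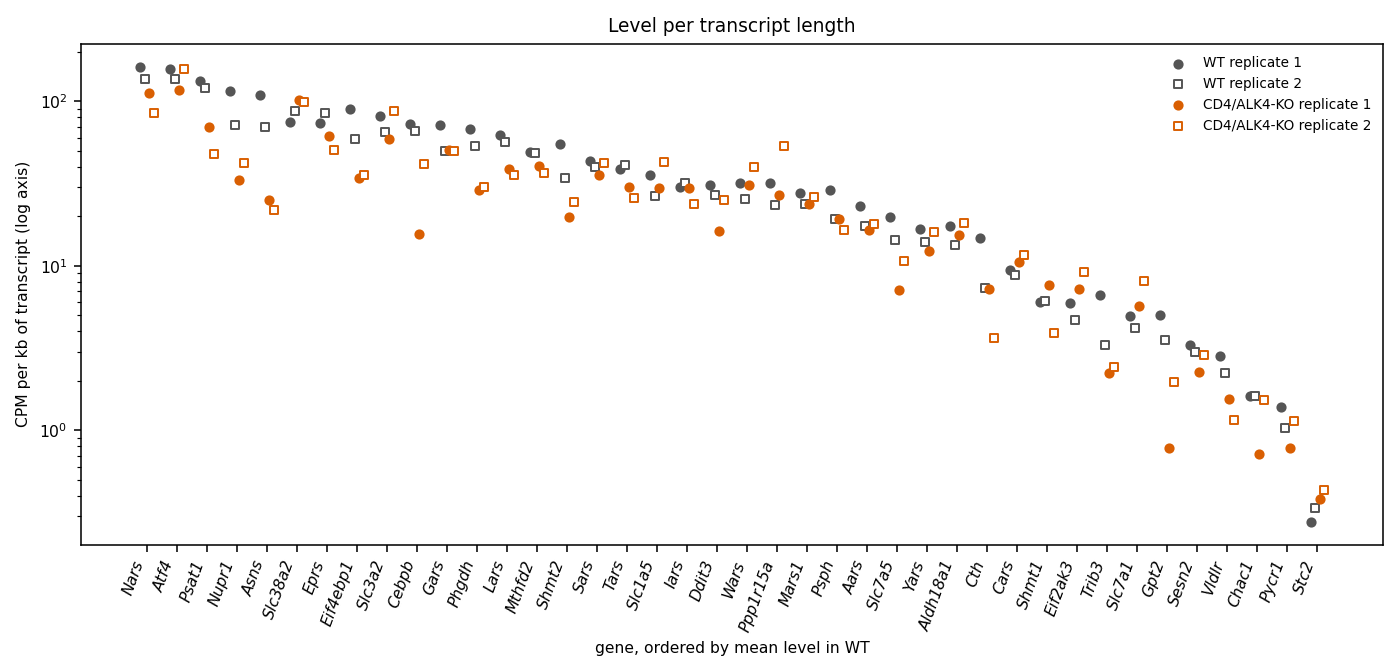
CPM per kb of the principal transcript (log axis) for each of the 40 genes in each library, ordered by the mean of the WT libraries. Levels run from 149 CPM per kb for *Nars* to 0.308 for *Stc2*, and *Asns* moves from 89.7 to 23.4 CPM per kb on the TMM scale shown. All 40 genes were lower on the scale set by T cell receptor genes, as were 92% of all genes tested.

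Replicates of one genotype also differed in these genes. In CPM, WT replicate 1 exceeded WT replicate 2 for 33 of the 40 genes (82.5%), against 50.4% of all genes tested, with a median log2 ratio of replicate 2 to replicate 1 of -0.30. CD4/ALK4-KO replicate 2 exceeded replicate 1 for 11 of the 12 ATF4 pathway factors and 4 of the 5 transporters, but for only 5 of the 11 synthesis enzymes and 6 of the 12 synthetases, against 51.0% of all genes tested. The CPM of the genotypes did not overlap for 26 of the 40 genes (65.0%), close to the 66.7% of all genes tested, but 21 of the 40 (52.5%) did so with CD4/ALK4-KO lower, against 34.0% of all genes tested. Without WT replicate 1 only 4 of the 40 genes were called lower, in a fit that called 5.24% of all genes tested lower. *Asns*, *Psat1* and *Gpt2* were called lower in the main test and in all 13 alternatives.

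Related genes of the same pathways were counted by lists, and each count is to be read against the 15.4% lower and 17.4% higher of all genes tested. The fits without WT replicate 1 and without WT replicate 2 called 5.24% and 7.27% of all genes tested lower, so that fewer calls in a list there went with fewer calls overall. Among 11 other cytosolic synthetases and proteins of their complex, 5 were lower and none higher, with a median log2 fold change of -0.58. *Rars*, for arginine, was at -1.0 (adjusted p = 0.0013) and the scaffold gene *Aimp2* at -0.81 (adjusted p = 0.0080), while the members with the highest counts, *Dars* (-0.52, adjusted p = 0.089) and *Kars* (-0.27, adjusted p = 0.37), did not pass. Of the 17 mitochondrial synthetases, encoded by separate genes, 1 was lower, *Yars2* at -0.98 (adjusted p = 0.0064), and the median was 0.15. Those with the highest counts, *Lars2* (0.18) and *Iars2* (-0.087), were not called. Leaving out WT replicate 1 or WT replicate 2 reduced the lower calls to 1 of the 11 cytosolic genes.

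Of 12 genes for eIF2, its kinases other than PERK, its exchange factor eIF2B and a phosphatase subunit, 2 were lower and 1 higher (median -0.10). *Eif2s1*, the phosphorylated subunit, was at -0.78 (adjusted p = 0.012) and *Eif2b3* at -0.92 (adjusted p = 0.0030), while *Eif2s2* (-0.41) was not called. Among 10 other ATF4-linked genes 3 were lower and 1 higher. *Atf5*, a related factor induced in the same response, had 420 and 253 counts in the WT-labelled libraries and 83 and 129 in the KO-labelled ones (log2 fold change -1.5, adjusted p = 0.00066). The glycine carrier gene *Slc6a9* was at -1.09 (adjusted p = 0.012). *Slc7a11*, the cystine importer and a well-known ATF4 target, went the other way, with 740 and 1106 against 1562 and 1149 counts (0.72, adjusted p = 0.022), although on the scale set by T cell receptor genes this list as a whole had a median of -2.34. *Ddit4* was at 0.13 and not called. Without WT replicate 1 neither list had a gene called in either direction, and without WT replicate 2 the lower calls were 1 and 2.

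Genes of the XBP1 and ATF6 branches of the unfolded protein response, many of them chaperones, were lower for 7 of 17, with 1 higher and a median of -0.20. *Hsp90b1* (-0.92, adjusted p = 0.0011), *Hspa5* (-0.54, adjusted p = 0.039) and *Pdia6* (-1.23, adjusted p = 0.00011), all folding factors of the endoplasmic reticulum, were among them. Other amino acid transporters had 5 of 15 higher and 1 lower, with a median of 0.34, and -1.85 on the scale set by T cell receptor genes. *Slc38a1*, a glutamine importer, was at 0.84 (adjusted p = 0.0043) and the lysosomal arginine sensor *Slc38a9* at 1.23 (adjusted p = 0.0011), while the serine and alanine carrier *Slc1a4* was at -1.42 (adjusted p = 0.00097) and the taurine carrier *Slc6a6* at 0.38 (adjusted p = 0.24). Without WT replicate 1 none of the 15 was called higher or lower, and without WT replicate 2 there were 3 higher and 1 lower. Leaving out either WT library left 2 of the 17 genes of the XBP1 and ATF6 branches lower.

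The other folate, glycine and methionine cycle enzymes had 5 of 16 tested genes lower and 1 higher, with a median of -0.40. *Aldh1l2*, a mitochondrial folate enzyme downstream of *Mthfd2*, had the largest change of those called, with 478 and 239 counts in the WT-labelled libraries and 90 and 71 in the KO-labelled ones (log2 fold change -1.98, adjusted p = 6.6e-05). The methionine synthase gene *Mtr* was at 0.96 (adjusted p = 0.0034), while *Mat2a* (-0.15) and *Mthfd1l* (-0.34) were not called. Among other enzymes of amino acid interconversion and breakdown 5 of 20 tested genes were lower and none higher, with a median of 0.013. *Bcat1*, the cytosolic branched-chain aminotransferase, had 1201 and 871 counts against 283 and 311 (-1.63, adjusted p = 1.2e-05). *Arg1*, the arginase abundant in myeloid cells, was not called (-0.44, adjusted p = 0.14), *Oat* was at -0.60 (adjusted p = 0.046), and *Gls2* had 34 or fewer counts in every library (-1.99, adjusted p = 0.038). Without WT replicate 1 each of these lists had 2 genes lower, and without WT replicate 2 they had 2 and 3.

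Genes that sense amino acids upstream of mTORC1 had 4 of 17 higher and 1 lower, with a median of 0.12. *Sesn3*, a sestrin of the same family as *Sesn2*, had 201 and 287 counts in the WT-labelled libraries and 763 and 858 in the KO-labelled ones (log2 fold change 1.90, adjusted p = 2.9e-06). *Rragd*, a Rag GTPase, was at 1.85 (adjusted p = 0.0024) with few counts, 20 and 31 against 93 and 71, whereas *Rraga* was at -0.60 (adjusted p = 0.029) and *Rragc* at -0.027. On the scale set by T cell receptor genes the median of this list was -2.06. Leaving out either WT library left 2 genes of the list higher and none lower.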

How the data were processed

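RNA-Seq libraries (TruSeq RNA v2, single-end) of samples described as CD4+ T cells from lung tumors were analysed, 2 per genotype, grouped by sample title. The authors checked reads with FastQC, aligned them to mm10 with HISAT2, counted reads per gene with htseq-count (intersection-nonempty mode) and deposited raw counts without normalization. Tool versions, annotation and strand option are not given in the sources used here, so reads of overlapping genes cannot be told apart. Replicates differed by more than sampling noise (chi-square per degree of freedom 16.0 for WT and 28.7 for CD4/ALK4-KO).

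Genotypes were compared by edgeR (version 4.0.16, R 4.3.3) using filterByExpr, TMM, robust glmQLFit with genotype as the only term, glmQLFTest and Benjamini-Hochberg adjustment over 13919 genes. Each standard error is the size of the log2 fold change over the root of its F statistic. The fit was first tested on simulated counts with known changes. Positions, exon overlaps and principal transcript lengths are from GENCODE M21 (GRCm38, the assembly of mm10), which matched all 40 genes, and promoters from RefSeq (GRCm38.p6). The alternatives were DESeq2 1.42.0 (Wald test, size factors), upper quartile scaling, scaling to the T cell receptor complex (4 of 7 listed genes counted), no filter, a minimum of 10 counts in all libraries, a block for the replicate number, the likelihood ratio test and each library left out, where a lone library was assumed to vary like the other genotype. All 40 genes are named, and of each related list the 2 genes with the highest CPM and up to 2 with the largest change among those called. The genes and lists were chosen with earlier results of these data known. One promoter sequence is not reported here.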

Additional observations from a re-analysis of the deposited data

How the results depend on the processing

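The count of 13 lower genes was 40 on the scale set by T cell receptor genes and ranged from 4 to 16 when libraries were omitted singly, with the lowest value without WT replicate 1. It stayed within 1.5 times of 13 under the other alternatives. On the T cell receptor scale 92% of all genes tested were called lower too. The single higher call (*Eif2ak3*) was absent with upper quartile scaling, on the T cell receptor scale and with DESeq2's Wald test (0 each), and the count ranged from 0 to 4 over the fits omitting a library. The median log2 fold change of -0.34 was -2.51 on the T cell receptor scale and lay between -0.46 and -0.25 over the fits that each omitted a library. On the T cell receptor scale 9 genes above 0 turned negative and were called lower: *Ppp1r15a* (-1.61), *Eif2ak3* (-1.54), *Stc2* (-1.77), *Aldh18a1* (-2.04), *Slc7a1* (-1.59), *Slc1a5* (-1.95), *Slc38a2* (-1.89), *Cars* (-1.90) and *Wars* (-1.86). The shift on this scale was a median of -2.18 over all genes, larger in size than the highest of the 40 values, 0.63 for *Eif2ak3*. These changes of sign therefore tell nothing particular to these genes. Of 520 single-gene values under the alternatives, 445 stayed on their side of the threshold, 26 lost a call and 40 gained one. The other 9 changed direction with a call in at least 1 of the fits compared. Among the 445 are values that changed direction without a call in either fit. Of 338 counts for the lists, 246 stayed within 1.5 times of the main count. Over all genes, the calls were 1103 higher and 754 lower without WT replicate 1, against 2422 and 2140.

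The replicate numbers share no stated origin. Deviations of same-numbered libraries from their genotype means correlated at -0.21. With 2 libraries per genotype this value cannot tell whether the numbers pair the samples. With the replicate number as a block, 10 of the 40 genes were lower and 0 higher. The block removed the calls of *Trib3* (-1.0), *Vldlr* (-0.91), *Lars* (-0.69), *Nars* (-0.61) and *Eif2ak3* (0.63), which left no synthetase of the 12 called, and added that of *Cebpb* (-1.43). With the numbers crossed, a pairing added after seeing the data, 16 were lower and 3 higher. Counting depth limited *Chac1*, *Stc2* and *Pycr1*.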
